A study of Mus musculus with 28 samples.

Results

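Testis mRNA of mice without Prdm9 was compared with testis mRNA of mice without Hop2, in 2 libraries of each genotype. These 4 libraries are of 28 samples in the whole series, which studies what the domains of PRDM9 do in meiosis, and were chosen by genotype. The labels give strain C57BL/6 and testis for every library, the genotypes Prdm9 KO (Prdm9-/-) and Hop2 KO (Hop2-/-), and no age, treatment or allele design for the knockouts. A library from 1 wild-type testis, labelled adult, is given as a reference and enters no test. The deleted exons, the embryonic stem cells in which each allele was made and the number of backcrosses are, in the sources used here, not given. Whether the libraries of 1 genotype stem from different animals is not stated. All p-values therefore rest on the spread among these libraries, which could be technical.

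PRDM9 is a zinc finger protein of meiotic prophase that binds specific DNA motifs and trimethylates lysine residues of histone H3, which marks the sites where SPO11 cuts. HOP2, whose approved gene symbol is Psmc3ip, pairs with MND1 and helps recombinases such as DMC1 to invade the homologous chromosome at those breaks. Spermatocytes that lack either protein keep unrepaired breaks, synapse poorly and are lost in meiotic prophase, so a testis of either knockout has few later germ cells. The comparison asks what separates 1 arrested testis from another.

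Values are abundances that the authors called TPM, a measure of the relative abundance of transcripts, and rescaled, so the columns sum to between 825459 and 953598 in the knockouts and to 1622660 in wild type. Read depth is unknown. Labelled tissue and stage were checked against markers. The spermatocyte genes Sycp1 (110, 108, 102 and 75.5 in Prdm9 KO 1 and 2 and Hop2 KO 1 and 2, in this order) and Dmc1 (31.8, 32.1, 33.7 and 34.8) were present in every knockout library. Sox9 of Sertoli cells was between 63.3 and 68.5. The spermatid genes Prm1 and Tnp1 did not exceed 6.55 in any knockout library and were 27279 and 14428 in wild type. Epididymal Crisp1 was listed at 0 in each knockout library.

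The targeted genes were low where the labels say they should be. Psmc3ip (chr11:101092141-101095435, GRCm38.p6) was 3.51 and 5.06 in Hop2 KO, where Prdm9 KO had 22.8 and 26.4 and wild type 197 (log2 2.29, SE 0.19, limma adjusted p = 0.205). Its 3 main transcripts were all lower in Hop2 KO, but ENSMUST00000019447 kept 0.606 and 3.01 there. Prdm9 (chr17:15543072-15564374) was 4.73 and 5.93 in Prdm9 KO, where Hop2 KO had 10.7 and 15.03 and wild type 6.196 (log2 -1.12, SE 0.21, limma adjusted p = 0.972). Both Prdm9 transcripts with a mean of at least 1 were lower in Prdm9 KO. ENSMUST00000139911 was 0.714 and 1.01 against 3.71 and 4.84, and ENSMUST00000167994 was 1.51 and 2.55 against 3.81 and 8.03. Prdm9 RNA was therefore still read in the Prdm9 KO libraries, and its wild-type level is that of a testis with many other germ cells.

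Most genes had close values in both knockouts. On the log2 scale of the fit, the 95% interval of the difference lay within 2-fold for 12950 of 14358 genes tested (90.2%). Among genes with a mean of at least 10 this held for 8624 of 9208 (93.7%), and among transcripts for 67.9% of 32722. The scale adds a constant to every value and so understates the changes of low genes. For these the bound is therefore looser in terms of abundance, and the log2 differences that follow are on the same scale. The median absolute log2 difference was 0.13 and its 95th percentile 0.45. The differences leaned slightly to Hop2 KO, with a median log2 difference (Prdm9 KO minus Hop2 KO) of -0.03 and 42.2% of genes higher in Prdm9 KO. With columns rescaled to equal sums that median was 0.08, so small differences are to be read relative to it.

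Few genes or transcripts passed correction. Limma on log2(value + 1) with Benjamini-Hochberg adjustment called 2 of 14358 genes (0.0139%), both pseudogenes and both higher in Prdm9 KO. It called 0 of 32722 transcripts (0.0%). Before adjustment, 445 genes (3.1%) and 983 transcripts (3.0%) had p under 0.05, of which 189 genes were higher (1.32%) and 256 lower (1.78%) in Prdm9 KO, and 566 transcripts higher (1.73%) and 417 lower (1.27%). The groups did not overlap for 32.9% of genes and 31.5% of transcripts. An exact permutation test of 2 libraries against 2 cannot go below p = 0.333. The number of genes called was 11 without Prdm9 KO replicate 2 and 4 without Hop2 KO replicate 2.

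Apart from the targeted genes, the protein-coding genes with the largest differences were taken from those with a mean of at least 5, groups that did not overlap and an unadjusted p under 0.05. This pool held 296 genes, 94 higher and 202 lower in Prdm9 KO. Genes among the 12 largest of each direction follow, and none of them passed adjustment (Myom3 at limma adjusted p = 0.603, every other at 0.972). Of the genes named, 6 lie on chromosome 17 within 20 Mb of Prdm9 (Dynlt1b, Cbs, Ermard, Bricd5, Hmga1 and Rnaset2b).

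Among the genes higher in Prdm9 KO was Myom3, a structural protein of the muscle M-band, at 10.9 and 7.75 against 2.01 and 2.51, a 4.13-fold difference of means (log2 1.65, SE 0.21). Sh3bgr, counted with the same skeletal muscle genes, went the other way, at 3.97 and 3.35 against 9.39 and 7.87. Other skeletal muscle genes differed widely in level. In the knockouts Acta1, the actin of skeletal muscle, did not exceed 0.200, and Ckm, its creatine kinase, stayed between 0.496 and 0.663, but the myosin light chain gene Mylpf was between 10.5 and 12.3. The part of other muscle RNA in the Myom3 difference was not tested. Thrsp, a regulator of lipid synthesis, was 16.0 and 37.2 against 10.5 and 9.29, so its size rested on 1 Prdm9 KO library. Adipoq of fat cells did not exceed 0.152 in the knockouts. Scd1, counted with the same adipocyte genes, was 64.2 and 64.0 against 58.8 and 52.5. The part of fat RNA in the Thrsp difference was not tested. Cbs, which joins homocysteine and serine, was 10.5 and 8.22 against 4.80 and 3.67 and only 0.780 in wild type. Ermard, of the endoplasmic reticulum membrane, was 25.1 and 30.2 against 13.0 and 15.9.

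The other genes on that side differed by 1.52-fold to 1.70-fold in their means. They were Bricd5, which carries a BRICHOS domain (38.7 and 24.9 against 16.5 and 20.8), the kinase gene Hipk2 (17.5 and 21.7 against 13.4 and 10.6) and Heg1, a membrane protein of endothelium (65.7 and 73.8 against 55.8 and 34.5). Zmiz1, a transcriptional coregulator, was 14.6 and 17.1 against 10.6 and 8.87. Ino80d, a subunit of the INO80 chromatin remodeller, was 8.25 and 8.38 against 6.26 and 4.12. Plxnb1, a semaphorin receptor, was 34.6 and 32.4 against 24.2 and 19.9.

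On the lower side stood Mt3, a metal-binding metallothionein, at 76.7 and 28.6 in Prdm9 KO against 199.8 and 149 in Hop2 KO (log2 -1.85, SE 0.48). Chd9 (chr8:90828302-91054516), a chromodomain helicase that acts on chromatin, was 55.8 and 140 against 318 and 321 (log2 -1.84, SE 0.44). Nearly all of it was 1 transcript, ENSMUST00000209474, at 53.0 and 136 against 316 and 318. For both genes the replicates of Prdm9 KO differed by more than 2-fold and those of Hop2 KO by less. The protease gene Klk1 was 19.9 and 8.22 against 35.2 and 36.0. Hmga1, which bends DNA as an architectural chromatin protein, was 47.8 and 90.2 against 172 and 149, values that are uncertain because related sequences can share its reads.

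Smaller but tighter were Sh3bgr (3.97 and 3.35 against 9.39 and 7.87) and Cbr3, a carbonyl reductase (20.1 and 18.9 against 37.3 and 31.0). Aldh3a1, which oxidises aldehydes, was 25.6 and 22.8 against 41.2 and 68.6. Lrrc17, a secreted leucine-rich repeat protein, was 9.07 and 7.73 against 21.4 and 14.9. Homer3, a scaffold protein, was 20.5 and 19.7 against 31.7 and 47.7. Rcn3, a calcium-binding protein of the secretory pathway, was 97.0 and 48.4 against 141 and 120.4, and Lcat, which esterifies cholesterol, was 14.4 and 9.52 against 21.2 and 21.9. Of the 12 genes on this side, all but Hmga1 and Chd9 had wild-type values below every knockout library.

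**Figure D1:**
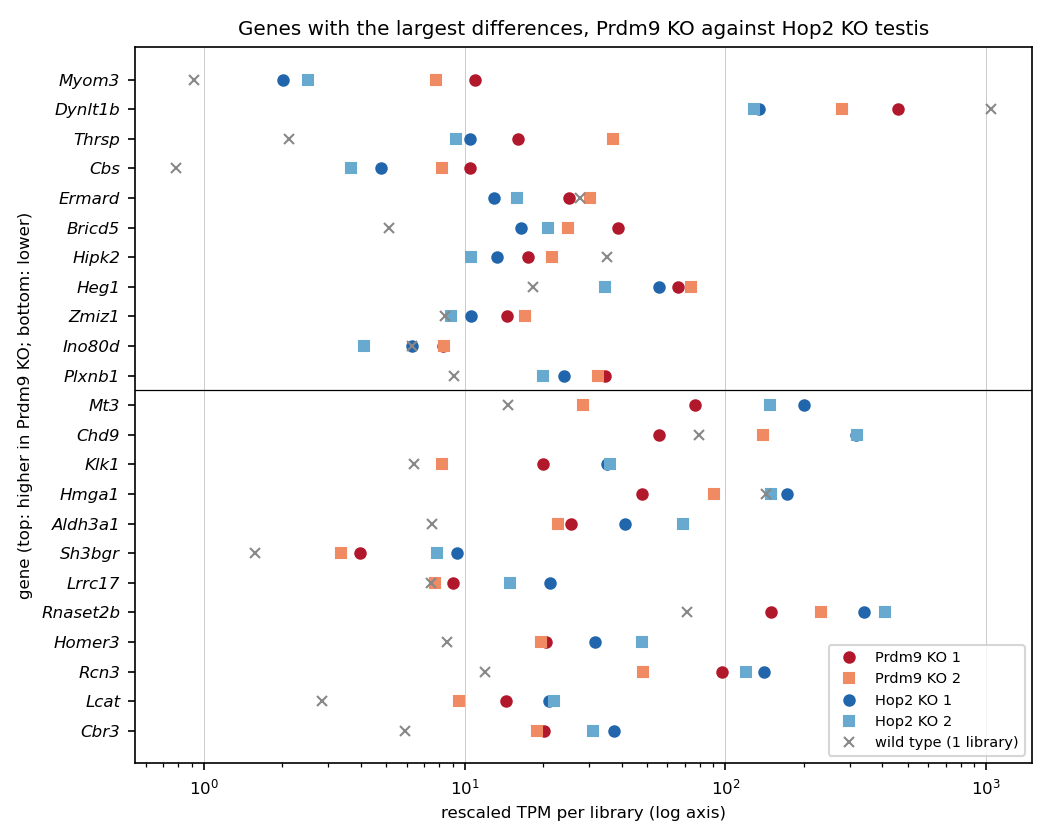
Values of 23 genes with the largest differences in each library, in rescaled TPM on a log axis, with points for single libraries and the wild-type library as a grey cross. Groups do not overlap in any row, as the rule required, and Mt3 and Chd9 show a wide replicate spread beside large differences.

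Genes near Prdm9 itself had small p-values more often than genes elsewhere. On chromosome 17 within 20 Mb of the start of Prdm9, 39 of 384 genes (10.2%) had an unadjusted p under 0.05, 17 higher and 22 lower in Prdm9 KO, against 3.1% of all genes tested. The share was 17.7% within 10 Mb (26 of 147), 12.1% within 5 Mb (4 of 33) and 9.4% within 30 Mb (41 of 436). It was 3.03% on the rest of chromosome 17 (9 of 297) and 2.7% on the other chromosomes (360 of 13312). The 39 genes run from Zdhhc14, which starts 10.1 Mb before Prdm9, to Aif1, 19.6 Mb beyond it. The distance was chosen after the values had been seen, the shares are a description with no test, and none of the 384 genes passed adjustment (0 calls in limma). Without Prdm9 KO replicate 1 the count within 20 Mb was 24.

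**Figure D2:**
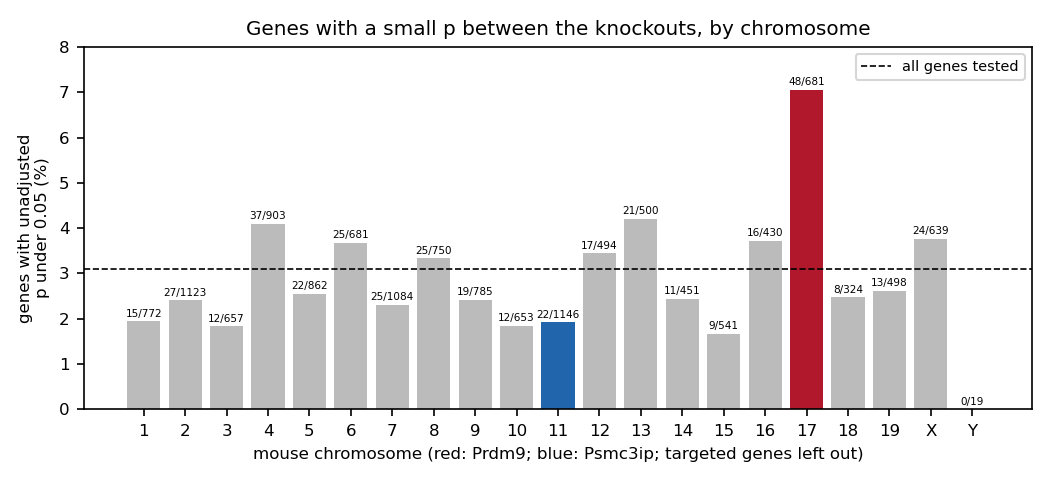
Percent of genes tested on each chromosome with an unadjusted limma p under 0.05, with the counts above the bars and the targeted genes left out; the dashed line is the 3.1% of all genes. Chromosome 17, which carries Prdm9, stands highest at 7.05% (48 of 681), and chromosome 11, which carries Psmc3ip, is at 1.92% (22 of 1146).

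The same held in the other readouts of these libraries, which share their reads with the gene values and are not independent of them. Within 20 Mb of Prdm9, 66 of 876 transcripts (7.53%) had an unadjusted p under 0.05, against 2.81% on other chromosomes. In the authors' deposited table of their own gene test, which does not name its groups, 57 of 506 genes in that stretch (11.3%) had p under 0.05, against 722 of 19372 (3.73%) on other chromosomes. No such share was seen around Psmc3ip on chromosome 11. Of 512 genes within 20 Mb of it, 12 (2.34%) had an unadjusted p under 0.05, of 179 within 5 Mb 6 (3.35%), and of 634 on the rest of that chromosome 10 (1.58%). Close to Psmc3ip, and named after its values were seen, Cntnap1, a cell adhesion protein of the neuronal paranode, was 3.24 and 3.42 against 1.01 and 1.24 (log2 1.03, SE 0.17). Plekhh3 was 34.2 and 32.7 against 42.3 and 50.6, and Ifi35 15.9 and 14.2 against 20.5 and 21.7.

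**Figure D3:**
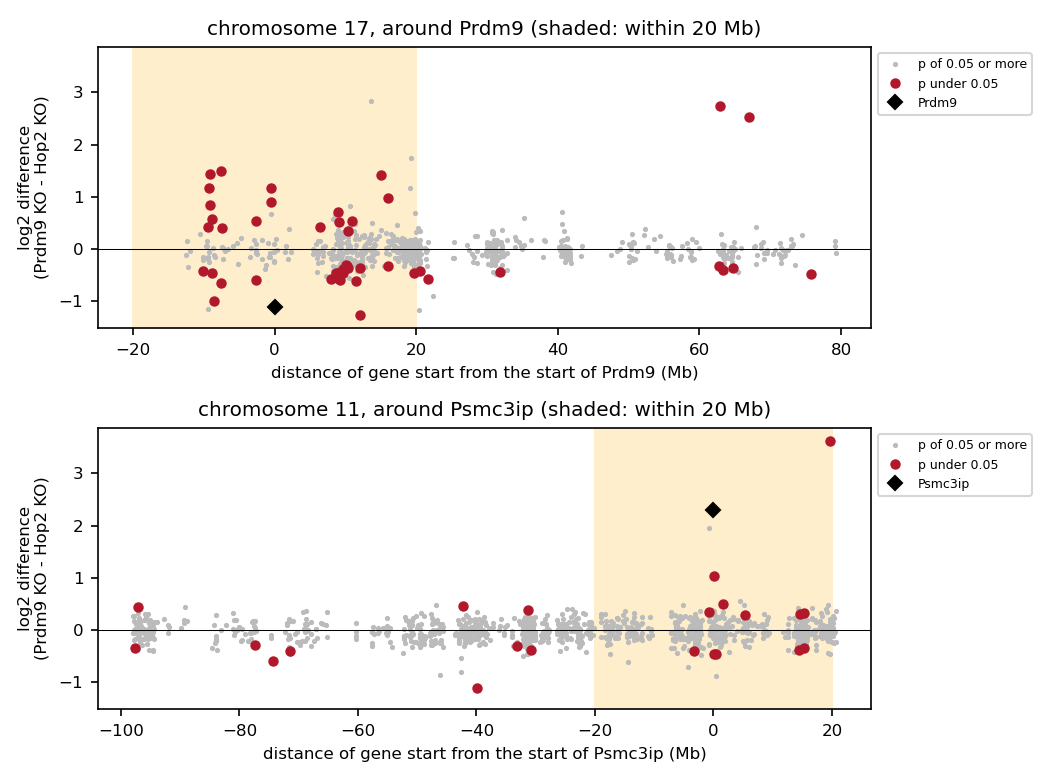
Log2 difference of each tested gene against the distance of its start from Prdm9 (top) or Psmc3ip (bottom) in Mb, with red points for an unadjusted p under 0.05 and the 20 Mb on either side shaded. Red points crowd on both sides of Prdm9 in both directions, 39 of 384, whereas 12 of 512 lie as close to Psmc3ip.

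Genes of that stretch are named here because of their position and p, both seen beforehand. Dynlt1b (chr17:6429530-6440500), a light chain of cytoplasmic dynein, was 460 and 279 against 135 and 129 and 1046 in wild type (log2 1.43, SE 0.26). Of its relatives in the same cluster, Dynlt1f was 80.6 and 92.8 against 115 and 123, and the log2 difference was 0.43 for Dynlt1c and -0.25 for Dynlt1a, neither with p under 0.05. Dnah8 (chr17:30626935-30875762), a heavy chain of the sperm axoneme, was 3.27 and 4.05 against 0.656 and 0.839, and 295 in wild type (log2 1.41, SE 0.19). Rsph3a, a radial spoke protein, was 15.6 and 23.1 against 30.6 and 29.9. So 1 axonemal gene was higher and another lower, and both were far below wild type.

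RNase T2 genes differed in opposite directions and by unlike amounts. Rnaset2b was 150.3 and 233 against 339 and 409, whereas Rnaset2a, in the same stretch around Prdm9, was 135 and 124 against 95.7 and 98.97. Their sum was lower in Prdm9 KO, at 286 and 356 against 435 and 508, and was 87.6 in wild type. Rnaset2a made up 47.4% and 34.7% of that sum in Prdm9 KO, but only 22.0% and 19.5% in Hop2 KO, close to the 18.5% of wild type. Where such genes share sequence, reads can be assigned to either, so the value of each is uncertain. Transcript sequences, on which the assignment of reads depends, were not compared. Printed below are only the stretches before start sites of this pair and of Dynlt1f and Dynlt1c. They come from RefSeq (GRCm38.p6), are read 5′ to 3′ on the strand of the gene, and capitals mark the bases at which the members of a pair differ. Rnaset2a has 2 starts in RefSeq, and its stretch lies before the inner one, within the gene as annotated. Those of Rnaset2a (chr17:8147833-8148037, minus strand) and Rnaset2b (chr17:6978655-6978859, plus strand) are identical at 204 of 205 bases. Those of Dynlt1f (chr17:6655940-6656081, minus strand) and Dynlt1c (chr17:6601529-6601670, plus strand) are identical at 139 of 142. The Dynlt1f stretch overlaps the gene as annotated, which reaches to chr17:6655965.
Rnaset2a: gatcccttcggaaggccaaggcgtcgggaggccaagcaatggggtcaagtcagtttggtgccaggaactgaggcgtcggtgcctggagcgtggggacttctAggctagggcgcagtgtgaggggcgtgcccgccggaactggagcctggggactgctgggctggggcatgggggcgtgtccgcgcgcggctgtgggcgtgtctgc
Rnaset2b: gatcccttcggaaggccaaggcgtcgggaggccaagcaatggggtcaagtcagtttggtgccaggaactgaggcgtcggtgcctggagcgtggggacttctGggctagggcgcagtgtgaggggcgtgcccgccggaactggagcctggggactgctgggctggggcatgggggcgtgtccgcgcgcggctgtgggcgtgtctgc
Dynlt1f: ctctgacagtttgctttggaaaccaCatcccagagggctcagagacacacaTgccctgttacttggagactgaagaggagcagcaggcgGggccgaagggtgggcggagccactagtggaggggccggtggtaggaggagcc
Dynlt1c: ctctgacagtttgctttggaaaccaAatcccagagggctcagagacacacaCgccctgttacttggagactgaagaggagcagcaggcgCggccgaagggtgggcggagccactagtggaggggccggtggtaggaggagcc

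Rps2, a protein of the small ribosomal subunit, was 803 and 807 against 1333 and 1124, and Mrps34 of the mitochondrial ribosome was 75.9 and 68.3 against 99.8 and 102. Atp6v0c, of the proton pump that acidifies lysosomes, was 523 and 494 against 720.4 and 684, and Clcn7, a lysosomal chloride transporter, 43.8 and 50.2 against 67.8 and 62.2. Reads of Rps2 and Atp6v0c can be split with copies elsewhere, and their sums with these copies are given below. Also lower were Gfer of mitochondrial disulfide formation, Hagh of the glyoxalase pathway, Ndufv3 of respiratory complex I and Bak1, which permeabilises mitochondria in apoptosis (11.4 and 12.8 against 20.4 and 17.8). Their log2 differences lay between -0.62 and -0.33. Rhot2, which moves mitochondria, was higher at 52.8 and 58.6 against 41.4 and 45.6.

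Wtap, a regulator of the enzyme that methylates adenosine in RNA, was 31.5 and 34.7 against 45.0 and 56.2. Rnps1, of the exon junction complex, was 78.5 and 97.1 against 123 and 134, and its sum with a copy elsewhere is also given below. Zfp213 was 11.02 and 11.1 against 19.0 and 15.4, and Zfp943 3.35 and 3.14 against 2.16 and 2.21. Among genes of metabolism and signalling, Acat3, a thiolase of acetoacetyl-CoA, was 32.8 and 33.5 against 22.2 and 22.8. Ezr, which ties actin to the membrane, was 89.8 and 77.4 against 49.4 and 62.1, and Tagap 5.54 and 2.91 against 0.999 and 0.635. Aif1, counted here with the macrophage genes, was 10.0 and 9.84 against 13.3 and 14.8, and 761 in wild type. C1qb, counted with them too, was 145 and 92.7 against 175 and 145, and only 27.8 in wild type. The cell type behind the wild-type value of Aif1 was not tested. Tulp4, Noxo1 and Neurl1b were higher, with log2 differences between 0.41 and 0.53. Lower were Zdhhc14, Lmf1 and Mcrip2, between -0.42 and -0.32.

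Copies of genes in the same stretch were set beside other copies. Pseudogenes and related sequences were taken by their names, and each copy shares sequence with its parent, so reads can be split between them. Of 8 copies whose parent lies within 20 Mb of Prdm9 and which themselves lie on other chromosomes, 8 were higher in Prdm9 KO, 6 of them with an unadjusted p under 0.05 (median log2 4.58). Of 120 copies of parents elsewhere, 41 were higher, 6 with p under 0.05, and 2 were lower with p under 0.05 (median -0.16). A copy was tested if its mean over the 4 knockout libraries was at least 1. Among the 8, some passed only through Prdm9 KO. They were Gm9825 (0.152 and 0.337 in Hop2 KO), Gm13443 (0 and 0.112), Rps2-ps10 (1.56 and 0.185) and Rps2-ps6 (1.42 and 0.527). For these the direction was fixed by that filter, and the median of 4.58 rests in part on them. The counts and medians are a description with no test. The copy of Rnps1 made up 56.7% and 39.6% of the sum of parent and copy in Prdm9 KO, against 0.124% and 0.251% in Hop2 KO, where wild type had 1.23%. For Atp6v0c these shares were 53.4% and 33.9% against 0.372% and 0.0683%, and for Rps2 34.7% and 13.9% against 0.223% and 0.0632%.

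In 4 of the 7 parents with such a copy, the parent itself was lower in Prdm9 KO with an unadjusted p under 0.05. Among them were Atp6v0c, Rnps1 and Rps2. Of all genes tested 1.78% were lower with such a p, and of the 384 genes in the stretch 22 were. These counts are a description with no test. Glo1, a glyoxalase with a p of 0.0658, was 96.0 and 77.0 against 63.5 and 70.2, and its copy Gm13443 was 33.3 and 10.7 against 0 and 0.112. Rab11b and Rpl10a and their copies had p of 0.05 or more. Summed with its copy, Atp6v0c was 1122 and 747 in Prdm9 KO against 723 and 685 in Hop2 KO. Rnps1 with its copy was 181 and 161 against 123 and 134. Both sums were higher in Prdm9 KO, although each parent was lower. For Rps2 with its 2 copies the sum was 1229 and 938 against 1336 and 1125, with overlapping groups. The values of these parents and of their copies are therefore uncertain as levels of RNA from 1 locus.

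**Figure D4:**
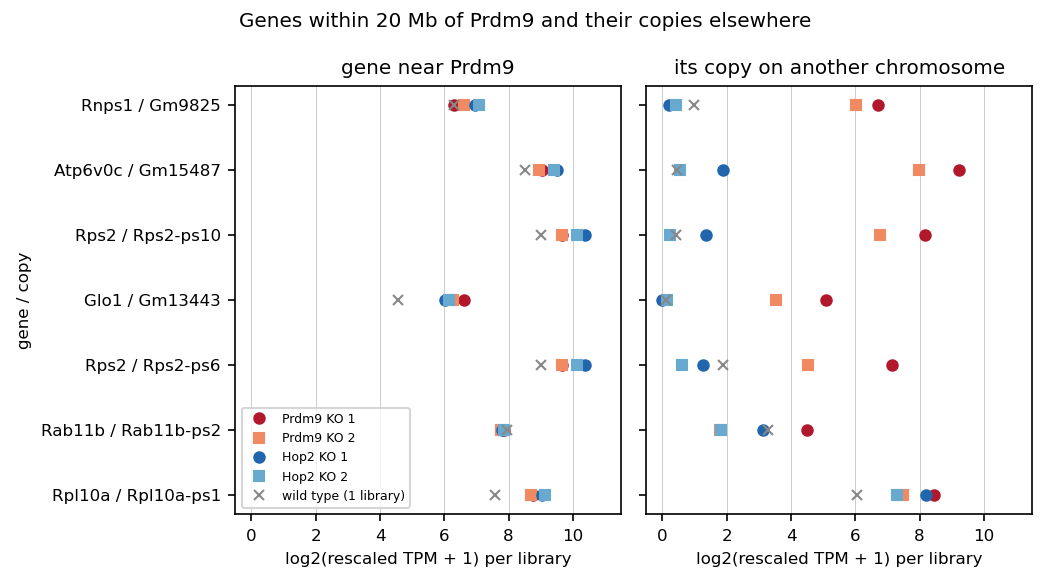
Values per library, as log2(rescaled TPM + 1), of 6 genes within 20 Mb of Prdm9 (left) and of 7 copies of them on other chromosomes (right). Copies of Rnps1, Atp6v0c, Rps2 and Glo1 sit near 0 in Hop2 KO and wild type and far to the right in both Prdm9 KO libraries, while these parents differ by 0.60 or less on the log2 scale.

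Transcript make-up differed in few genes. A test of each transcript against the others of its gene (diffSplice of limma) called 2 of 8060 genes (0.0248%), and 293 (3.64%) had an unadjusted p under 0.05. Within 20 Mb of Prdm9 the latter share was 8.76% (17 of 194), against 3.49% on other chromosomes (269 of 7708). The 2 genes called were Pigx and Hcfc1r1 (adjusted p = 0.0117 for each). Without 1 library the count was 4 when Prdm9 KO replicate 1 was left out, 5 for Prdm9 KO replicate 2, 136 for Hop2 KO replicate 1 and 7 for Hop2 KO replicate 2, so the calls depend on which libraries enter. Hcfc1r1 was called without either Prdm9 KO replicate but not without Hop2 KO replicate 2, and Pigx in none of these 3 fits. Pigx was also not called with a pseudocount of 5 or a minimum mean of 5, where Hcfc1r1 was.

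Pigx (chr16:32084416-32099727) encodes a subunit of the enzyme that adds mannose to GPI anchors. Its transcript ENSMUST00000155966 made up 0.0163% and 0.742% of the gene in Prdm9 KO against 19.96% and 16.6% in Hop2 KO, with 10.5% in wild type. ENSMUST00000189013 went the other way, with 17.2% and 19.6% against 4.45% and 5.84%. The gene total differed by -0.18 on the log2 scale, at 19.0 and 20.4 against 20.9 and 24.2. Hcfc1r1 (chr17:23673608-23675524), a regulator of host cell factor HCFC1, starts 8.13 Mb from Prdm9. ENSMUST00000179928 made up 66.9% and 38.7% of it in Prdm9 KO, where Hop2 KO had 1.41% and 1.64% and wild type 0.387%. In its place ENSMUST00000180140 made up 70.9% and 71.2% in Hop2 KO and 16.5% and 37.9% in Prdm9 KO. The gene total was 98.4 and 68.5 against 98.3 and 90.3.

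In other genes of small p the make-up differed without a call. Gcdh, a mitochondrial dehydrogenase of lysine breakdown (adjusted p = 0.0600), held 13.8% and 13.6% of ENSMUST00000142748 in Prdm9 KO and 0% and 1.63% in Hop2 KO, at gene totals of 25.3 and 27.7 against 24.4 and 27.3. Ubl7, a ubiquitin-like protein (adjusted p = 0.0600), held 6.98% and 4.52% of ENSMUST00000215936 in Prdm9 KO and values near 0 in Hop2 KO. In Wtap (adjusted p = 0.0698) ENSMUST00000159104 was 4.59% and 1.36% against 17.8% and 24.4%. Pbx3, a homeodomain factor (adjusted p = 0.0889), held 10.0% and 7.95% of ENSMUST00000143776 against 0.0338% and 0.00527%. Cd2bp2, of the spliceosome (adjusted p = 0.0889), held 2.29% and 1.01% of ENSMUST00000206026 against 7.55% and 6.62%.

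**Figure D5:**
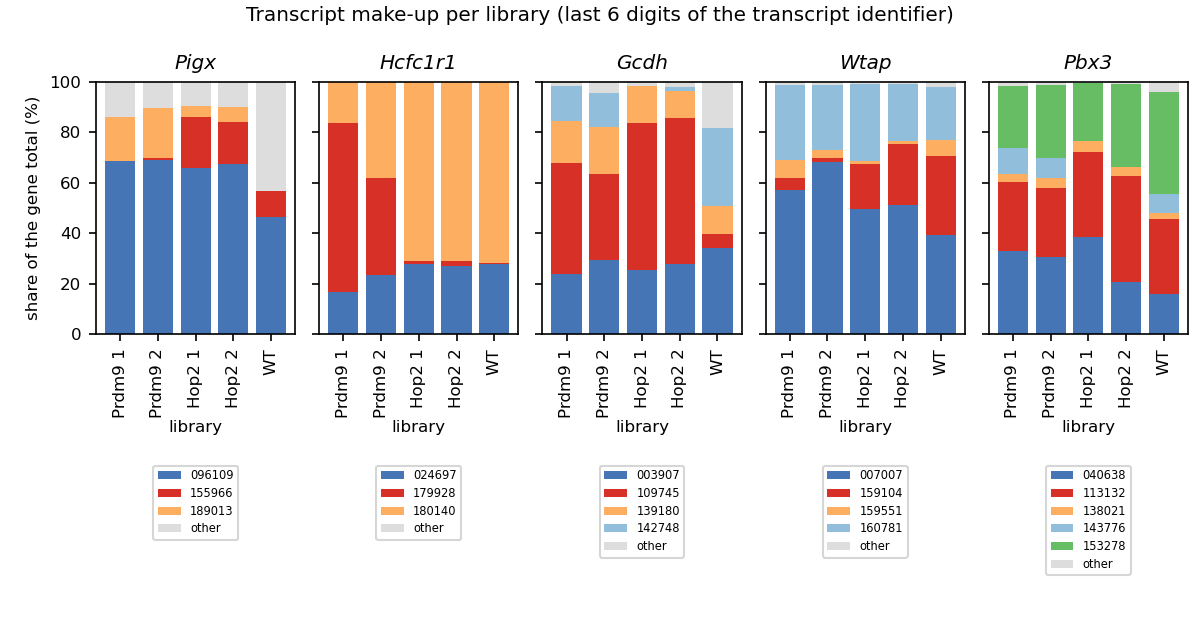
Share of each transcript in the total of its gene, in percent, for 5 genes in each library; grey is the sum of transcripts below a mean of 1. In Hcfc1r1 a transcript that is nearly absent in Hop2 KO and wild type makes up 66.9% and 38.7% in Prdm9 KO, and in Pigx one that makes up 19.96% and 16.6% in Hop2 KO is at 0.742% or less in Prdm9 KO.

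Single transcripts with large differences came mostly from genes whose total had an unadjusted p of 0.05 or more. Over all genes tested only 3.1% had a smaller p. The transcript rule drew on 684 transcripts, 349 higher and 335 lower, and those named here had limma adjusted p-values of 0.731 or more. Gnb1, a G protein beta subunit, had 2.33 and 2.37 of ENSMUST00000030940 against 13.7 and 15.2, at a log2 difference of 0.06 for the gene. Eif4g2, a translation factor, had 4.47 and 6.19 of ENSMUST00000161682 in Prdm9 KO, where Hop2 KO was listed at 0. Susd3 had 7.01 and 24.8 of ENSMUST00000135784 against 0.746 and 0.827. Qars, a glutaminyl-tRNA synthetase, had 1.67 and 0.332 of ENSMUST00000134939 against 8.94 and 6.71, and Lrp1, a lipoprotein receptor, 4.16 and 9.22 of ENSMUST00000135188 against 15.4 and 49.6. Tmem234 had 0 and 3.63 of ENSMUST00000150110 against 10.7 and 11.7. Tnks2 and Tcf25 each had a transcript between 11.1 and 14.0 in Prdm9 KO and at most 3.196 in Hop2 KO.

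The main transcript was the same in all 4 libraries for 6311 of 7708 genes (81.9%). It differed by genotype, with 1 main transcript in both Prdm9 KO libraries and another in both Hop2 KO libraries, in 91 genes (1.18%), and by replicate number in 224. Near Prdm9 it differed by genotype in 5 of 189 genes (2.65%), which were Hcfc1r1, Hmga1, Acat3, Ermard and Synj2. Named after their values were seen, Arsg, a sulfatase, had 59.0% and 75.1% of ENSMUST00000106697 in Prdm9 KO against 46.9% and 32.3%, and Itpr1, a calcium channel of the endoplasmic reticulum, 42.8% and 45.6% of ENSMUST00000032192 against 28.5% and 32.0%.

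Genes of meiosis had close values in both knockouts, as most genes did. None of 97 list members on strand exchange, PRDM9 partners, break formation, chromosome axis or checkpoint had an unadjusted p under 0.05. For 96 of them the 95% interval lay within 2-fold on the log2 scale of the fit. Over all genes tested these shares were 3.1% and 90.2%, and 93.7% of genes with a mean of at least 10 had such an interval. Whether the list members differ from other genes of their level was not tested. Of 24 strand exchange genes 14 were higher in Prdm9 KO (median log2 0.04). Mnd1, the partner of HOP2, was 13.1 and 19.9 against 14.7 and 15.6. The recombinase gene Dmc1 (log2 -0.10) and the mediator Brca2 (30.3 and 39.5 against 24.4 and 42.3) differed little. Xrcc2, which assists the recombinases, had the largest value at 8.21 and 7.13 against 6.59 and 4.66 (log2 0.40, SE 0.20), and Meiob, which binds single-stranded DNA, was 15.1 and 14.4 against 12.1 and 12.04 and lies in the stretch around Prdm9.

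Of 17 PRDM9 partners 12 were higher (median 0.06). Hells, which opens chromatin with PRDM9, was 52.0 and 43.6 against 46.9 and 42.1. The readers of its histone marks were Zcwpw1 (46.0 and 51.7 against 42.8 and 58.2) and Zcwpw2 (4.73 and 4.53 against 3.63 and 5.09). Ewsr1, an RNA-binding protein that PRDM9 contacts, was 247 and 334 against 204 and 262, with overlapping groups. The break formation list had 8 of 14 higher (median 0.01, below 0 in 4 alternatives including quantile normalization), with Ankrd31 at 6.11 and 8.04 against 5.38 and 5.18. Axis and synapsis genes were higher in 5 of 16 (median -0.07, above 0 with columns rescaled to equal sums), and checkpoint and sex body genes in 16 of 26 (median 0.06). Mdc1, which spreads the break response over the sex chromosomes, was 49.2 and 52.1 against 43.3 and 33.3.

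Summed over the list, pachytene genes were at 480.2 to 583 in the knockouts and at 18053 in wild type. Of 23 pachytene genes tested 17 were higher in Prdm9 KO (median 0.13, below 0 without Prdm9 KO replicate 2), against 42.2% of all genes. An unadjusted p under 0.05 was seen for 3 of the 23, against 3.1% of all genes. Within 20 Mb of Prdm9 lie 4 genes of the list. Among these are Dnah8, which had the largest log2 difference of the list (1.41), and Tcte3, at 14.7 and 21.7 against 8.60 and 13.9. Ccnb3, a cyclin of early prophase, was 13.6 and 12.9 against 23.9 and 17.2, all above the 1.21 of wild type. Of 15 spermatid genes 13 were lower (median -0.25, above 0 without Hop2 KO replicate 2), at list sums of 129 and 170.3 against 142 and 204, with 135668 in wild type. Sex-linked genes that pachytene cells normally silence were lower in 17 of 29 (median -0.04, above 0 with columns rescaled to equal sums), 2 with an unadjusted p under 0.05. Over all genes 42.2% were higher and 3.1% had such a p, so this list is near the background. Taf7l was 71.1 and 78.8 against 92.1 and 96.4, and Pgk1 103 and 78.6 against 121 and 112. Over the whole X chromosome, the median log2 level less that of the autosomes was -0.02 and -0.04 in Prdm9 KO and 0.08 and -0.03 in Hop2 KO. That difference of -0.05 lies within the replicate SD of 0.06.

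Spermatogonial genes showed little. Undifferentiated spermatogonia had 13 of 17 genes higher (median 0.10), with Sall4 at 10.5 and 12.5 against 9.91 and 8.79. Differentiating ones had 8 of 16 higher (median -0.01, above 0 in 6 alternatives including median-ratio scaling), with the methyltransferase gene Dnmt3a at 38.1 and 34.2 against 31.0 and 24.5. Genes of retrotransposon control were higher in 8 of 17 (median -0.02, above 0 with median-ratio scaling), where Mov10l1, a piRNA helicase, was 114 and 121 against 95.9 and 96.7. Replication-dependent histones were higher in 12 of 18 (median 0.10, below 0 with a minimum mean of 5), 4 with p under 0.05 where all genes gave 3.1%, and their copies share sequence.

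Somatic genes differed by small amounts. In bulk tissue fewer cells of a type and less RNA per cell cannot be told apart. Of 29 Sertoli genes 24 were lower in Prdm9 KO (median -0.18, between -0.23 and -0.01 over the alternatives), none with an unadjusted p under 0.05 in limma, and 7 lower and 1 higher without overlap between groups, which over all genes held for 32.9%. Inha, the inhibin alpha subunit, was 886 and 720.2 against 888 and 1120, and Aard 884 and 734 against 1052 and 984. Leydig genes were lower in 14 of 22 (median -0.19, between -0.30 and -0.05), with Cyp17a1 at 2151 and 1649 against 2501 and 2407. Myoid genes were lower in 14 of 17 (median -0.27) and macrophage genes in 14 of 22 (median -0.15), but both medians were above 0 when Prdm9 KO replicate 2 or the first Hop2 KO library was left out. Endothelial genes were lower in 11 of 17 (median -0.07, above 0 with columns rescaled to equal sums). Among all genes with a mean of at least 10, 37.7% were higher in Prdm9 KO, so the Leydig, macrophage and endothelial counts are near the background.

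Markers of age of Leydig and Sertoli cells were examined because no age is given. Of 15 tested, 12 were lower in Prdm9 KO (median -0.10, above 0 with columns rescaled to equal sums) and none had an unadjusted p under 0.05. Amh, made by young Sertoli cells, was 30.7 and 28.5 against 30.2 and 43.0. Hsd3b6 and Hsd17b3, of adult Leydig cells, were 902 and 714 against 1062 and 968, and 151 and 202 against 207 and 221. A pair of abundant genes differed between replicates more than between genotypes: Insl3 of Leydig cells was 31185 and 44712 against 21025 and 68224, and the prostaglandin D synthase gene Ptgds was 2113 and 6792 against 1582 and 7321.

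Signal-response genes also differed little. Of 29 immediate early genes 20 were lower (median -0.11, between -0.19 and -0.0046 over the alternatives), 2 with p under 0.05, against 3.1% of all genes, and Id3, which blocks helix-loop-helix transcription factors, was 17.5 and 17.5 against 29.3 and 27.3 (log2 -0.66, SE 0.11). Nr4a1, a nuclear receptor, was 7.82 and 7.18 against 9.95 and 22.0. Clock genes, which follow the time of day, were higher in 11 of 19 (median 0.06), none with p under 0.05. Arntl was 7.52 and 7.51 against 7.69 and 8.44, and its opposite in phase, Per2, 3.01 and 3.86 against 2.67 and 2.17, while Dbp was 60.9 and 54.4 against 68.7 and 71.0. Heat shock and stress genes were lower in 16 of 20 (median -0.13), with Txnip at 245 and 392 against 237 and 195. Interferon response genes were lower in 13 of 19 (median -0.10, above 0 with columns rescaled to equal sums), with Irf9 at 8.98 and 8.94 against 11.2 and 10.8.

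Of the mitochondrial genome 12 of 13 genes were lower (median -0.19, above 0 without Prdm9 KO replicate 1). Their sums were 29020 and 32105 against 40440.3 and 33886, and mt-Nd3, of respiratory complex I, was 212 and 272 against 372 and 366. Steroid and cholesterol synthesis genes were higher in 12 of 22 (median 0.02, below 0 without Prdm9 KO replicate 1), where Stard4, which carries cholesterol, was 16.4 and 21.6 against 15.8 and 12.3. Lymphocyte genes were higher in 7 of 10 (median 0.06) and red blood cell genes in 4 of 5 (median 0.19), both of the other sign in a fit without 1 library. Skeletal muscle genes were higher in 6 of 10 (median 0.02, below 0 with quantile normalization), and adipocyte genes in 1 of 3 (median -0.07, above 0 with columns rescaled to equal sums). Epididymal genes were lower in 3 of 3 (median -0.56), of which Cst8, also made in testis, was 59.0 and 22.4 against 66.3 and 61.3.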

How the data were processed

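Values came from the deposited gene and transcript tables, which the authors called TPM per the file headers. They are treated as a signal, since the deposited columns do not share 1 sum. CASAVA, kallisto and sleuth with builds GRCm38 and mm10 are named in the submitters' processing notes, and no versions are named there. No per-sample column was left unused (0 columns). A gene test by the authors was deposited as p-values and q-values, and shares of its p-values are quoted by name.

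Features averaging 1 or more across the 4 knockout libraries were tested on log2(value + 1). The fit was limma 3.58.1 (R 4.3.3, intensity trend), with a Benjamini-Hochberg adjusted p under 0.05 as a call. On this scale the changes of low genes are understated. Transcript make-up was tested with diffSplice, without an intensity trend, over genes with 2 or more tested transcripts. The fits were tested on simulated data. Gene positions are RefSeq's (GRCm38.p6), matched by symbol for 13995 of the 14358 genes tested (97.5%). Genes were named by rule: the 12 per direction of largest difference (mean of at least 5), 8 transcripts per direction (mean of at least 2), 8 genes by make-up, and up to 2 members per list, or any member of the lists on strand exchange, PRDM9 partners, age and clock genes. The 29 lists, the members and the rules were chosen with earlier results of these data known. A gene value equals the sum over its transcripts. The 14 alternatives covered the pseudocount, the filter, scaling, the fit and left-out libraries, and scaling included columns brought to equal sums. Some genes that these rules name are not reported here. Histone methylation and microRNA samples were not used here.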

Additional observations from a re-analysis of the deposited data

How the results depend on the processing

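Limits: 2 libraries a group, unknown depth and reads shared between copies set what can be seen. The genes called were 2, and 1 with a pseudocount of 5 and 0 with no filter (980 at an unadjusted p under 0.05). Without 1 library there were 3 to 11, in fits where the lone library of a group is assumed to vary like the other group. Make-up calls were 2, and 12 with a pseudocount of 0.5, 37 with a minimum mean of 0.1 in place of 1, and 4 to 136 without 1 library. Genes within 20 Mb of Prdm9 with an unadjusted p under 0.05 were 39, and 60 of 589 with no filter (10.2%, against 3.07% on other chromosomes) and 24 to 34 without 1 library, when their share was 6.3% to 8.79%, against 1.32% to 6.04% on other chromosomes. The genes bounded within 2-fold were 77.0% to 85.8% without 1 library and 87.2% to 95.9% otherwise. The make-up test used no intensity trend in any fit, so leaving the trend out did not change its counts. The cause of these shifts was not tested.

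The labels give replicate numbers but no pairing. Across genes, the differences between replicates 1 and 2 of both genotypes correlated at r = 0.41 over only 2 pairs, and the first principal component (49.0% of variance) split libraries by replicate number (scores of -0.56 and 0.31 for Prdm9 KO, but -0.40 and 0.65 for Hop2 KO). With the replicate number as a block, 8 genes were called (Psmc3ip among them), with 1536 at an unadjusted p under 0.05, 1 transcript, 0 genes by make-up (853 at an unadjusted p under 0.05), and 78 genes within 20 Mb of Prdm9 had an unadjusted p under 0.05 (20.3%, against 10.1% on other chromosomes).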
